A study of Mus musculus with 6 samples.

Results

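The genes of the tripartite motif (TRIM) family were examined in 2 subtypes of dysplastic stem cells, labelled TP-DSCs and DP-DSCs, that had been isolated by flow sorting from Meta4 organoids, a mouse dysplastic epithelial organoid line. The members were all rows of the count tables whose symbol begins with Trim and a digit, which gave 66 genes of 23420, and the 35 with a mean of at least 1 CPM (the count of a gene scaled to the reads that its library assigned to genes) over the libraries are described. Polyadenylated RNA was sequenced from 3 libraries of TP-DSCs and 3 of DP-DSCs, all from that 1 untreated line, and the labels give no genotype, age or passage. As known of the study (the labels do not say it), TP cells carry CD133, CD166 and the CD44v6 form of CD44 at the surface and DP cells lack CD44v6, and the line came from mouse stomach. The labels call the samples independent without naming separate cultures. The p-values therefore measure the spread between these libraries, which may be technical, and in bulk RNA fewer expressing cells and less RNA per cell cannot be told apart.

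TRIM proteins carry a RING domain, B-box zinc fingers and a coiled coil, followed by a C-terminal region that differs between classes and chooses the target. Most act as ubiquitin ligases with E2 enzymes that hand over the ubiquitin. The class with a PHD finger and bromodomain works on chromatin, the class with an NHL or filamin repeat includes RNA-binding and cytoskeletal ligases, the class with a COS box binds microtubules, and many of the large class with a SPRY domain act in antiviral defence and are induced by interferon.

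Reads assigned to genes numbered 17015581 to 31068454 per library in TP-DSCs and 27027919 to 32671039 in DP-DSCs, so 1 read was worth 0.0322 to 0.0588 CPM in TP-DSCs and 0.0306 to 0.0370 CPM in DP-DSCs. Genes with at least 1 read numbered 10571 to 10982 in the TP-DSC libraries and 12504 to 14434 in the DP-DSC libraries. The summed CPM of 5 epithelial genes (Epcam, Cdh1, Krt8, Krt18 and Krt19) lay between 7446 and 9029 in TP-DSCs and between 7984 and 9758 in DP-DSCs. The 4 T cell genes searched had no reads in any library, while the 5 leukocyte genes with a row summed to 32.9 to 42.3 CPM in TP-DSCs and 36.6 to 90.9 CPM in DP-DSCs. Cd14 and Cd68 gave nearly all of that, and the defining marker Ptprc had none in TP-DSCs and at most 0.0920 CPM in DP-DSCs. The part of such cells in the results was not tested. The library names carry the number 3840 (1 library of each subtype) or 4140 (2 of each), whose meaning the labels do not give.

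No TRIM gene differed between the subtypes past a false discovery rate of 0.05. All 35 members with a mean of at least 1 CPM, and none of the others, passed the filter on low counts, and 0 of them were called by edgeR's quasi-likelihood test (0% of all 11925 genes tested). At an unadjusted p under 0.05 there was 1 member, Trim12c, higher in TP-DSCs, where 6.1% of all tested genes reached that value, 1.43% on the higher and 4.67% on the lower side. In limma-voom 0 members were called and 2 reached an unadjusted p under 0.05 (8.06% of all genes), 1 of them higher in TP-DSCs. The DESeq2 test on the same genes called 0 members (0.804% of all genes, 0.0605% higher and 0.744% lower), with 1 member at an unadjusted p under 0.05 (6.3% of all genes). Entering every gene with a read instead, a choice made after seeing the data, DESeq2 called 1 member, Trim12c (1.86% of all genes, 0.272% higher and 1.59% lower). Log2 fold changes of TP-DSCs over DP-DSCs were above 0 for 22 members and below 0 for 13, with a median of 0.19, beside 48.2% of all genes above 0 and a median of -0.02. That median of the members moved with the method: it was -0.038 with limma-voom, where the median of all genes was -0.15, and 0.020 with the library number as a block. In 3 of the 35 tested members, Trim12c, Trim6 and Trim33, the lowest TP-DSC library exceeded the highest DP-DSC library (8.57%, against 3.87% of all tested genes). Among the tested members 0 were separated in the lower direction (8.56% of all tested genes).

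**Figure D1:**
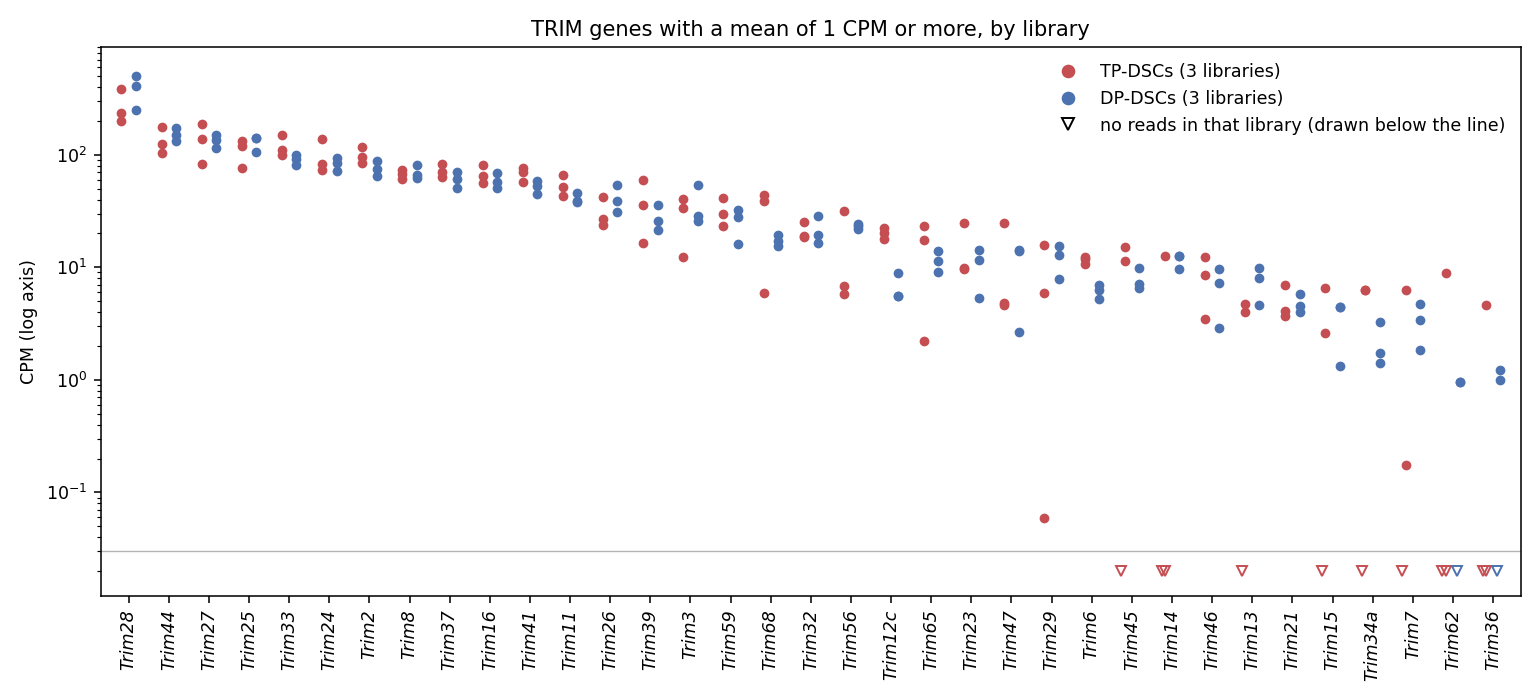
CPM of the 35 TRIM genes with a mean of at least 1 CPM, on a log axis, in 3 TP-DSC libraries (red) and 3 DP-DSC libraries (blue), ordered by mean; open triangles mark libraries without reads. The red and blue points separate only in Trim33, Trim12c and Trim6, and below about 10 CPM the red points scatter widely.

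**Figure D2:**
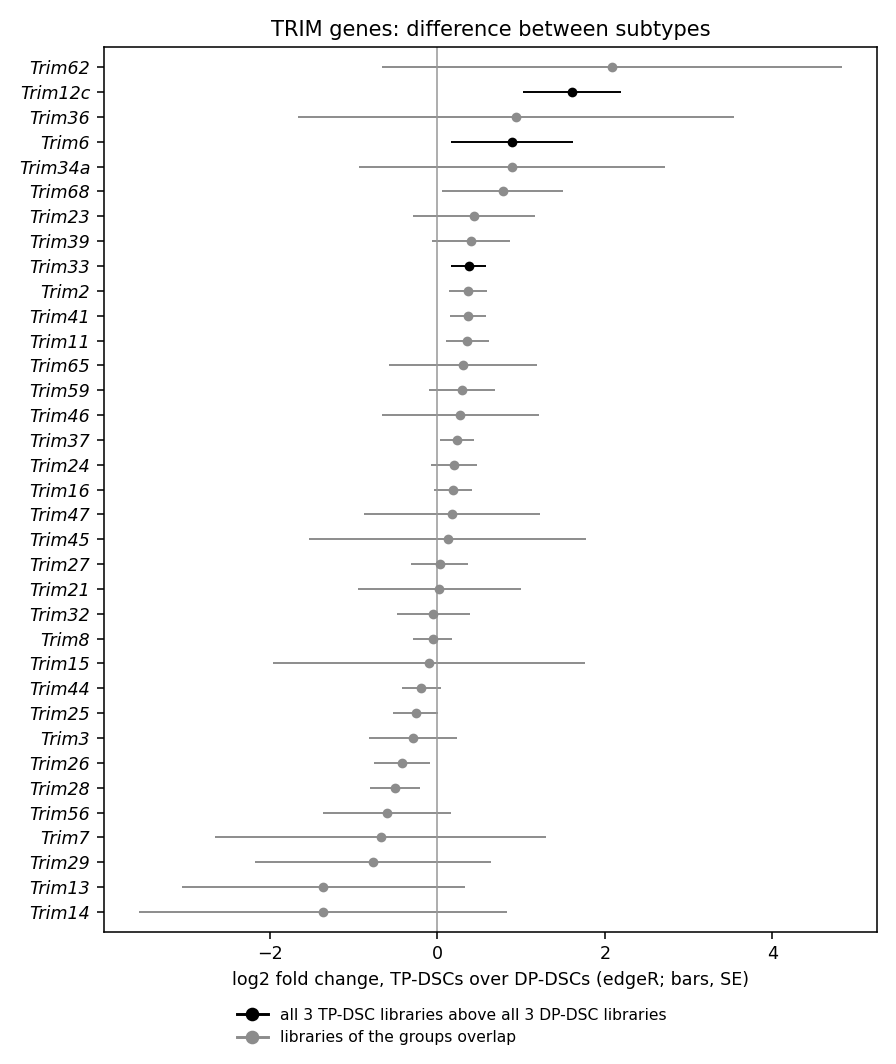
Log2 fold change of TP-DSCs over DP-DSCs for the same 35 genes, from edgeR, with bars for the standard error; black marks the genes whose TP-DSC libraries all lie above the DP-DSC libraries. Trim12c stands at 1.61, Trim6 at 0.89 and Trim33 at 0.38, and the wide bars belong to genes of low or uneven counts.

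Trim12c showed the clearest separation. It is a mouse relative of human TRIM5, the restriction factor of retroviral capsids, and in mouse cells it has been linked to TRAF6 and the induction of interferon and NF-kB. Its level was 20.2, 22.5 and 17.9 CPM in TP-DSCs replicates 1, 2 and 3, against 5.58, 8.82 and 5.51 CPM in DP-DSCs replicates 1, 2 and 3. All TP-DSC libraries were more than double the highest DP-DSC library, and the values rest on 383 to 557 reads per library in TP-DSCs and 149 to 288 in DP-DSCs. The mean was 20.2 ± 2.29 CPM in TP-DSCs and 6.64 ± 1.89 CPM in DP-DSCs (SD, n = 3 each), a ratio of 3.04. The log2 fold change was 1.61 ± 0.58 (SE), with an unadjusted p of 0.0270 and an adjusted p of 0.585 in edgeR's quasi-likelihood test, so it did not pass. Among the 11925 tested genes it ranked 550 by p. DESeq2 gave an adjusted p of 0.110 on the same genes and of 0.00316 when every gene with a read was entered, and over all alternatives the adjusted p ran from 0.00316 to 0.99999 (edgeR, limma-voom or DESeq2). The difference of mean log2 CPM was 1.87 in the pair of libraries numbered 3840 and 1.48 in those numbered 4140. Without DP-DSCs replicate 1, 2 or 3 the unadjusted p in edgeR was 0.0965, 0.0584 and 0.118, and the log2 fold change stayed at 1.48 or more.

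Trim12c lies on chromosome 7 from 104338754 to 104353362 on the minus strand (GENCODE M21 on GRCm38, the assembly also called mm10), inside a run of TRIM genes that arose by duplication. The RefSeq promoter windows below (GRCm38.p6, from upstream of the start to shortly after it, in the gene's own direction) are shown because Trim12c and its copy Trim12a differ in level while their promoters are alike at most bases, with Trim34a and Trim6 as their neighbours. Capitals mark a match to GAAA, any 2 bases and GAAA, the core of the element bound by interferon-activated factors, which reads TTTC, 2 bases and TTTC where it lies on the other strand. The windows are chr7:104353300-104353599 (minus strand) for Trim12c, chr7:104315446-104315745 (minus strand) for Trim12a, chr7:104244207-104244506 (plus strand) for Trim34a and chr7:104218545-104218844 (plus strand) for Trim6.
Trim12c: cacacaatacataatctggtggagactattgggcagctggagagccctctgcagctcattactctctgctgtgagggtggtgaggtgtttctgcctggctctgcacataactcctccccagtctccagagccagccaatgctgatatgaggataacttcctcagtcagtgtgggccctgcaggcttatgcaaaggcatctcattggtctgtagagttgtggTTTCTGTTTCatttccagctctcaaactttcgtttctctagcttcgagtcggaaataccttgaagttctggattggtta
Trim12a: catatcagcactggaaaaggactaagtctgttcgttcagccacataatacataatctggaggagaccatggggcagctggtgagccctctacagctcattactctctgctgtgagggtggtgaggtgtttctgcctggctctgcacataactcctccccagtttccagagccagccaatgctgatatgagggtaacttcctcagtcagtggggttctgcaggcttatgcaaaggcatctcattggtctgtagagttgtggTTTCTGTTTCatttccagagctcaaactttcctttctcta
Trim34a: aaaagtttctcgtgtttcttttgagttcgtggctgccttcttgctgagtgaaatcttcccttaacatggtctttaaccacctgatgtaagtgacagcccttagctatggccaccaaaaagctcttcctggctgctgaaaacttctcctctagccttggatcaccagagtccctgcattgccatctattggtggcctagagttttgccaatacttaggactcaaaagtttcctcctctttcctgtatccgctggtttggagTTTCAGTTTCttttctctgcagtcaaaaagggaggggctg
Trim6: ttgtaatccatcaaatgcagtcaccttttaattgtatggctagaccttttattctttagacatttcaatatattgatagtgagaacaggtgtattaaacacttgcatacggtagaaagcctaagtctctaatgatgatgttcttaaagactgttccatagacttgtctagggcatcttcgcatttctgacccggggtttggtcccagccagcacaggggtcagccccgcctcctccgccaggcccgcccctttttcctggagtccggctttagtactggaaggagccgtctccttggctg

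The Trim12c window was identical to that of Trim12a at 248 bases in a global alignment (82.7% of the window) and to that of Trim5 at 265 bases (88.3%). The windows are cut at annotated starts that do not line up. The match begins at -29 from the start in Trim12c, at 10 in Trim12a and at -49 in Trim5. Window ends without a counterpart count as not identical, so these shares understate the likeness and do not rank the copies. It was identical to that of Trim6 at 58.0% and to that of Trim34a at 60.7%. The Trim34a window was identical to that of its copy Trim34b at 60.0%, no more than to that of Trim12c. All pairs outside the set of Trim12c, Trim12a and Trim5 lay between 57.7 and 60.7%. Unrelated windows were not aligned, so whether such shares exceed those of unrelated sequence was not tested. The windows of Trim12c, Trim12a, Trim34a and Trim5 each held 1 match and those of Trim6 and Trim34b none. Windows were present for 50 of the 66 members. On both strands, 9 of their 64 windows held a match (14.1%), against 3.44% of the 32851 windows of all genes; Trim21 and Trim26 each held a pair of overlapping matches. Of the 8 member genes with a match, 6 belong to the chromosome 7 group. A match is a description of the letters and not of binding.

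Of the relatives of Trim12c with a row in the count tables, several were scarce. Trim12a was without reads in TP-DSCs and had 0.859, 0 and 0.888 CPM in DP-DSCs replicates 1, 2 and 3. Trim34b had no reads in TP-DSCs and 0.399, 2.23 and 0.333 CPM in DP-DSCs. The groups of Trim34b thus did not overlap, but it did not pass the filter on low counts and was not tested. A count of 0 allows up to 0.0411 CPM summed over the TP-DSC libraries (3 reads; counting error only, since reads are not independent molecules). Trim30a and Trim30d reached at most 0.0614 and 0.370 CPM, in DP-DSCs, and Trim30b had no reads in any library. Trim5, the gene closest to Trim12c in sequence, and Trim30c had no row under those symbols, so their levels could not be read.

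Counts of copies can be split between them. Of all stretches of 50 bases in the annotated transcripts of Trim12c, 24.2% also occur in transcripts of Trim5 and 6.38% in those of Trim12a; for Trim34a, 39.8% occur in Trim34b. How the counting treated reads with several matches is not given in the sources used here. Trim34a also shares 23.5% of its exonic bases with Gm47248, an antisense gene, and the strand setting is not stated.

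Trim6, an interferon pathway ligase that makes free ubiquitin chains for the kinase IKK-epsilon, lies in the same run, from 104218793 to 104235152. It stood at 10.7, 11.8 and 12.4 CPM in TP-DSCs and at 6.90, 5.23 and 6.25 CPM in DP-DSCs. The groups did not overlap, with means of 11.6 ± 0.875 CPM in TP-DSCs and 6.13 ± 0.841 CPM in DP-DSCs (SD, n = 3 each). The log2 fold change was 0.89 ± 0.73 (SE), with an adjusted p of 0.999 in edgeR. In DESeq2 the adjusted p was 0.99955 on the same genes and 0.358 with every gene entered. The differences within library numbers 3840 and 4140 were 0.65 and 1.03.

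Trim34a, a SPRY ligase, had 0, 6.35 and 6.28 CPM in TP-DSCs and 1.72, 1.41 and 3.29 CPM in DP-DSCs, so a pair of TP-DSC libraries lay above and one below every DP-DSC library. The log2 fold change of Trim34a was 0.89 ± 1.82 (SE) in edgeR. Trim68, known as a coactivator of the androgen receptor, had 43.6, 38.96 and 5.86 CPM in TP-DSCs and 19.5, 17.1 and 15.4 CPM in DP-DSCs. TP-DSCs replicate 3 was the lowest of all libraries and the others the highest. The log2 fold change of Trim68 was 0.78 ± 0.72 (SE), and without TP-DSCs replicate 3 it was 1.27, with an unadjusted p of 0.00705 and an adjusted p of 0.256 in edgeR. It was 0.28 without TP-DSCs replicate 1 and 0.017 with limma-voom. Trim21, the cytosolic receptor for antibody-coated particles, had 4.09, 6.99 and 3.67 CPM in TP-DSCs and 4.54, 5.78 and 4.03 CPM in DP-DSCs, and the groups overlapped. The log2 fold change of Trim21 was 0.02 ± 0.98 (SE) in edgeR.

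**Figure D3:**
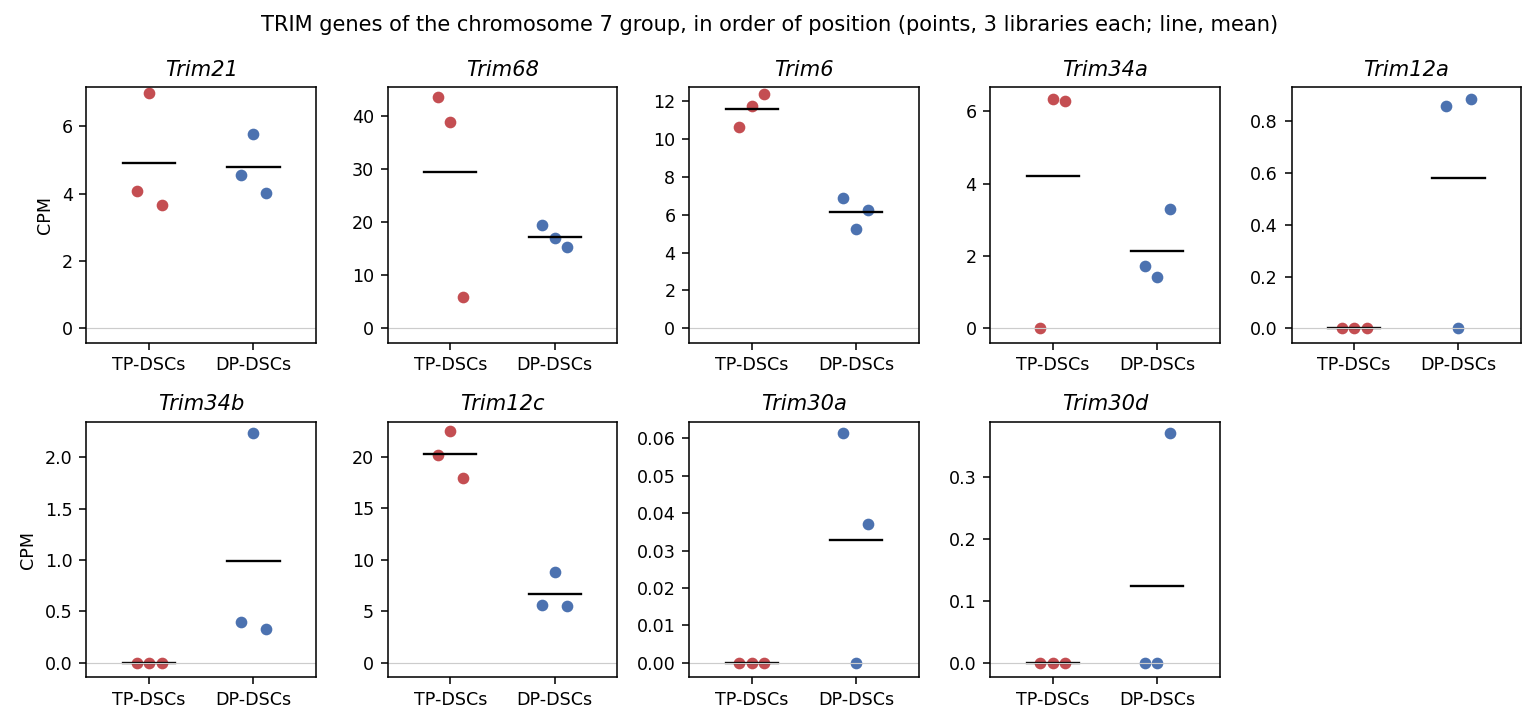
CPM of the TRIM genes of the chromosome 7 group that had reads, in order of position, with 3 TP-DSC libraries (red, left) and 3 DP-DSC libraries (blue, right) and the mean of each as a line; each panel has its own axis. Trim12c averages 20.2 CPM in TP-DSCs and 6.64 CPM in DP-DSCs, Trim6 11.6 and 6.13 CPM, and Trim12a, Trim34b, Trim30a and Trim30d have no reads in TP-DSCs.

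Among the chromatin members, Trim33 was the one without overlap. Trim33 (TIF1-gamma), a cofactor and ubiquitin ligase of Smad4 in TGF-beta signalling, had 100.1, 149.9 and 109.7 CPM in TP-DSCs and 99.6, 91.7 and 81.2 CPM in DP-DSCs. The lowest TP-DSC library exceeded the highest DP-DSC library by under 1 CPM, and both were numbered 3840. The log2 fold change was 0.38 ± 0.21 (SE; adjusted p = 0.999 in edgeR), with 0.04 within number 3840 and 0.53 within number 4140.

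Trim28 (KAP1), the corepressor that KRAB zinc finger proteins bring to chromatin, was the most abundant TRIM transcript. It had 201, 235 and 386 CPM in TP-DSCs and 248, 499.6 and 408 CPM in DP-DSCs, and it made up 13.2 to 28.1% of all TRIM reads of a library. Per kilobase of its longest coding transcript its mean was 84.4 CPM in TP-DSCs and 119 CPM in DP-DSCs. The log2 fold change was -0.51 ± 0.30 (SE; adjusted p = 0.999 in edgeR), and the groups overlapped. It was -0.79 without TP-DSCs replicate 3 and -0.75 without DP-DSCs replicate 1, with adjusted p-values of 0.361 and 0.592 in edgeR, and -0.33 without DP-DSCs replicate 2. Trim24 (TIF1-alpha), a nuclear receptor cofactor that also targets p53, had 72.8, 83.0 and 137.7 CPM in TP-DSCs and 93.3, 71.8 and 84.4 CPM in DP-DSCs, with TP-DSCs replicate 3 highest. The log2 fold change of Trim24 was 0.20 ± 0.27 (SE) in edgeR. Trim66, the remaining member of that class, had 3 reads in all, in DP-DSCs replicate 1.

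Genes linked to repression by Trim28 were compared as a list, whether or not they belong to its complex. All 14 genes were tested, 11 had a log2 fold change above 0 and 3 below, the median was 0.20 (all tested genes, -0.02), and 0 passed in edgeR or DESeq2. Atrx, a chromatin remodeller, had the smallest p of the list and a log2 fold change of 0.72, from 239 ± 119.95 CPM in TP-DSCs and 141 ± 39.5 CPM in DP-DSCs (SD, n = 3 each). TP-DSCs replicate 3 stood at 377 CPM, while replicates 1 and 2, at 164 and 176 CPM, lay below DP-DSCs replicate 1 (186 CPM). The difference for Atrx was -0.15 within number 3840 and 1.09 within number 4140. Morc3 and Mphosph8, a silencing ATPase and a reader of methylated histone H3, followed with 0.33 and 0.57. The histone methyltransferase Setdb1 had 76.7 ± 19.1 CPM in TP-DSCs and 68.7 ± 14.0 CPM in DP-DSCs (SD, n = 3 each).

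Per kilobase of transcript, the next most abundant members over all 6 libraries were Trim27 (31.3 CPM per kb), Trim44 (25.5), Trim24 (22.4), Trim25 (21.4), Trim8 (19.1), Trim41 (17.5) and Trim16 (16.2). Their libraries overlapped between the subtypes in every case. Trim27 (Ret finger protein) had 187, 82.8 and 138 CPM in TP-DSCs and 135, 115 and 151 CPM in DP-DSCs, with a log2 fold change of 0.03 whose sign changed with the scaling and with the libraries used. Trim25, which ubiquitinates the RNA sensor RIG-I, had 119.9, 132 and 75.8 CPM in TP-DSCs and 141, 142 and 106 CPM in DP-DSCs, a log2 fold change of -0.26 ± 0.27 (SE), which was -0.031 without TP-DSCs replicate 3. Trim44, which lacks a RING domain, had 125, 104 and 175 CPM in TP-DSCs and 132, 151 and 172 CPM in DP-DSCs, a log2 fold change of -0.19 ± 0.23 (SE), which ran from -0.38 without TP-DSCs replicate 3 to -0.016 without TP-DSCs replicate 2.

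Trim8, which acts on cytokine signalling, stood at 61.2 to 73.8 CPM in TP-DSCs and 61.6 to 80.7 CPM in DP-DSCs. The log2 fold change of Trim8 was -0.06 ± 0.23 (SE) in edgeR. Trim41, a ligase of protein kinase C, had 57.9, 70.5 and 75.8 CPM in TP-DSCs and 57.9, 52.6 and 45.2 CPM in DP-DSCs, a log2 fold change of 0.37 ± 0.22 (SE; adjusted p = 0.999 in edgeR), and the groups met at replicate 1 of each. Trim16, a RING-less member with E3 activity in keratinocytes, stood at 56.4 to 81.5 CPM in TP-DSCs and 50.4 to 68.4 CPM in DP-DSCs, with a log2 fold change of 0.19 ± 0.23 (SE) that ran from 0.075 without TP-DSCs replicate 3 to 0.33 without TP-DSCs replicate 2.

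Each gene was placed in 1 class only, so RING-less and COS box members were not counted as SPRY whatever other domains they carry. The SPRY class so listed had 16 tested members, 12 with a log2 fold change above 0 and 4 below, and a median of 0.33. The summed level of the class was 494 to 575 CPM in TP-DSCs and 469 to 508 CPM in DP-DSCs. Trim11 stood at 42.7 to 66.5 CPM in TP-DSCs and 38.3 to 45.9 CPM in DP-DSCs. The major histocompatibility region on chromosome 17 holds Trim26, which acts on IRF3, at 23.6 to 41.8 CPM in TP-DSCs and 30.7 to 53.4 CPM in DP-DSCs. It also holds Trim39, at 16.5 to 60.2 CPM in TP-DSCs and 21.5 to 35.9 CPM in DP-DSCs, and Trim15, at 0 to 6.53 CPM in TP-DSCs and 1.33 to 4.44 CPM in DP-DSCs. The RING-bearing members with none of these C-terminal domains were Trim8 and Trim56. Trim56, which acts on nucleic acid sensing, had 31.7, 6.82 and 5.79 CPM in TP-DSCs and 24.5, 23.4 and 21.8 CPM in DP-DSCs, so that TP-DSCs replicate 1 lay above and the others far below the DP-DSC libraries. Trim65, a ligase of the RNA sensor MDA5, had 17.3, 2.23 and 23.2 CPM in TP-DSCs and 9.02, 11.4 and 14.1 CPM in DP-DSCs.

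Among members with NHL or filamin repeats, Trim2, a ligase of neurofilament light chain, stood at 83.7 to 117 CPM in TP-DSCs and 64.4 to 88.5 CPM in DP-DSCs, a log2 fold change of 0.37 ± 0.23 (SE; adjusted p = 0.999 in edgeR). Trim3 stood at 12.3 to 40.6 CPM in TP-DSCs and 25.8 to 53.8 CPM in DP-DSCs. Trim32, mutated in limb-girdle muscular dystrophy, stood at 18.6 to 25.3 CPM in TP-DSCs and 16.4 to 28.3 CPM in DP-DSCs. Trim37, which limits centrosome assembly and carries a MATH domain, had 62.97, 82.6 and 70.4 CPM in TP-DSCs and 51.1, 69.7 and 61.3 CPM in DP-DSCs. The transmembrane member Trim59 stood at 23.2 to 41.7 CPM in TP-DSCs and 16.1 to 32.6 CPM in DP-DSCs, and Trim23, which carries an ARF domain, at 9.66 to 24.8 CPM in TP-DSCs and 5.39 to 14.4 CPM in DP-DSCs. Of the COS box members, Trim46, of the axon initial segment, stood at 3.45 to 12.4 CPM in TP-DSCs and 2.89 to 9.61 CPM in DP-DSCs. Trim36 stood at 0 to 4.64 CPM in TP-DSCs and 0 to 1.23 CPM in DP-DSCs.

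Several scarce members were read in some TP-DSC libraries and missing from others. Trim14, an adaptor of mitochondrial antiviral signalling, had 12.7, 0 and 0 CPM in TP-DSCs against 12.6, 9.61 and 12.6 CPM in DP-DSCs; 31.3% of its exonic bases overlap Nans on the opposite strand. Trim29, known from basal and squamous epithelia, had 5.93, 0.0588 and 15.7 CPM in TP-DSCs against 7.95, 12.9 and 15.6 CPM in DP-DSCs, and the value in TP-DSCs replicate 2 is 1 read. Trim45 had 0, 15.2 and 11.4 CPM in TP-DSCs against 7.15, 9.76 and 6.55 CPM in DP-DSCs. Trim13, a ligase of the endoplasmic reticulum, had 4.05, 0 and 4.73 CPM in TP-DSCs against 8.07, 4.59 and 9.77 CPM in DP-DSCs. Trim7 and Trim62 were high in TP-DSCs replicate 3 alone, at 6.31 and 8.88 CPM, with at most 0.176 CPM in the other TP-DSC libraries, and stood at 1.85 to 4.71 and 0 to 0.962 CPM in DP-DSCs.

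This unevenness was shared with other genes of such levels. Of the 12 members with a mean of 1 to 10 CPM, 8 lacked reads in at least 1 TP-DSC library and 2 in at least 1 DP-DSC library (66.7 and 16.7%), against 79.3% in TP-DSCs and 11.1% in DP-DSCs for the 2366 genes of that range. All 12 members that had reads but a mean under 1 CPM had them in DP-DSCs only, as did 89.5% of the 3445 genes of that kind. The coefficient of variation over the libraries of a subtype was larger in TP-DSCs in 29 of the 35 members (82.9%, against 76.4% of genes with a mean of at least 1 CPM). Its median for the 18 members of 10 to 100 CPM was 30.5% in TP-DSCs and 19.0% in DP-DSCs. Over the 7137 genes of that range the medians were 38.7% in TP-DSCs and 20.1% in DP-DSCs. Trim12c and Trim6 were among the 6 exceptions, with 11.3 and 7.54% in TP-DSCs and 28.4 and 13.7% in DP-DSCs. The TP-DSC libraries also held fewer genes with reads, and the part of this in the missing values of the members was not tested.

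**Figure D4:**
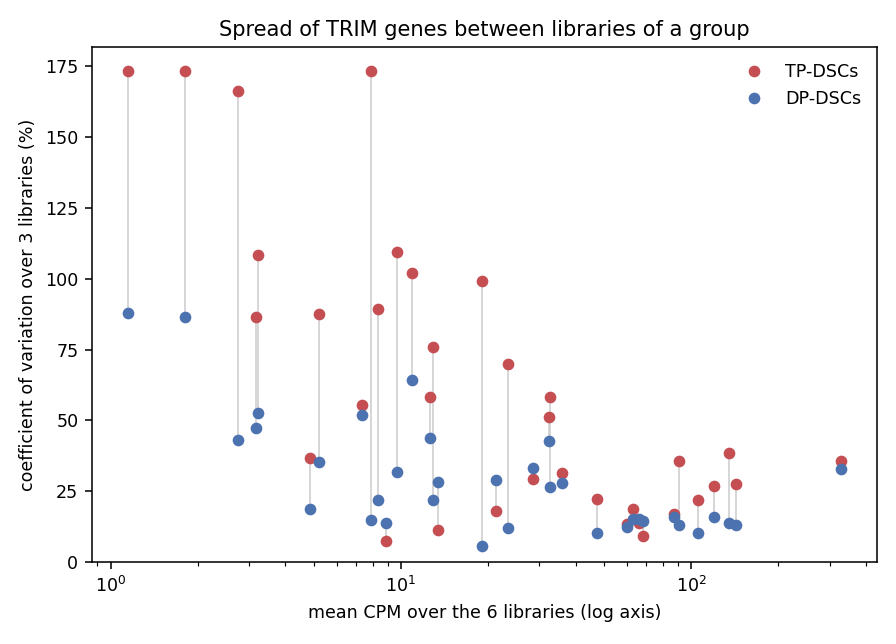
Coefficient of variation of CPM over the 3 libraries of a subtype against mean CPM (log axis) for the 35 TRIM genes; red, TP-DSCs; blue, DP-DSCs; a grey line joins the same gene. Red lies above blue in 29 of 35 genes.

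The libraries numbered 3840 and 4140 gave separate values of each difference. Of the 23 members with a mean of at least 10 CPM, 12 had the same sign under both numbers, 7 higher and 5 lower in TP-DSCs (52.2%, beside 50.4% of the 9364 tested genes of that level). Trim12c was the farthest from 0 under number 3840 (1.87), and under number 4140 it was exceeded in size by Trim56 alone, at -1.87 beside 0.40 under number 3840. Trim68 differed by 1.19 and -0.13, Trim65 by 0.97 and -0.84, and Trim39 by -0.61 and 0.70, under 3840 and 4140 in that order.

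**Figure D5:**
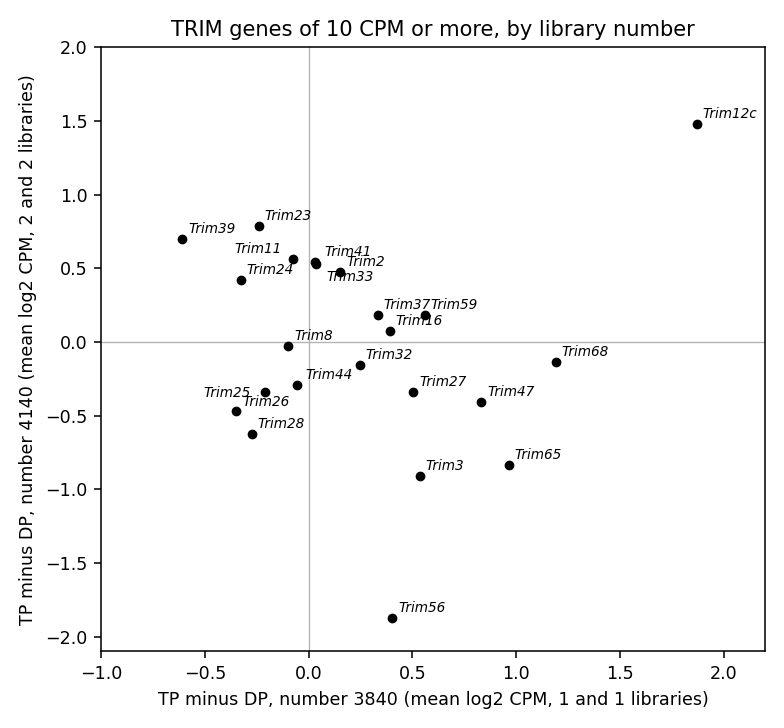
Difference of mean log2 CPM between TP-DSCs and DP-DSCs in the libraries numbered 3840 (x axis, 1 library each) and 4140 (y axis, 2 libraries each) for the 23 TRIM genes with a mean of at least 10 CPM. Trim12c lies alone at the upper right, at 1.87 and 1.48, and the other genes spread over all quadrants.

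Other genes around the family gave no call. Of the TRIM proteins with other symbols, Mid1, a microtubule-bound ligase of the phosphatase PP2A, had 6.01, 6.41 and 7.66 CPM in TP-DSCs and 8.68, 20.3 and 10.5 CPM in DP-DSCs, without overlap (log2 fold change -0.97; adjusted p = 0.999 in edgeR), while Pml, of nuclear bodies, and Mid2 overlapped. Of 13 tested genes of nucleic acid sensing, the pathway that Trim25, Trim65 and Trim56 act on, 4 had a log2 fold change above 0 and 9 below, with a median of -0.12. Irf3, its transcription factor, averaged 54.1 ± 21.8 CPM in TP-DSCs and 70.8 ± 4.52 CPM in DP-DSCs (SD, n = 3 each). Of 23 genes of interferon signalling and response, 12 were tested, with 6 log2 fold changes above 0, 6 below and a median of -0.09. Ifnar1 had the smallest p of those tested in edgeR, with a log2 fold change of -0.33 and overlapping groups. The other 11 of the 23 genes, among them Isg15 and Usp18, were without reads in TP-DSCs. They had at most 9.54 CPM in any DP-DSC library (Rsad2 in replicate 1). Such absence was common among scarce genes: of all 3445 genes with reads but a mean under 1 CPM, 89.5% had none in TP-DSCs. Rsad2, with a mean above 1 CPM, is not in that set. Of 12 E2 enzymes, 8 lay below 0 and 4 above (median -0.12). Ube2w had the smallest p of them in edgeR, with a log2 fold change of 0.56 and overlapping groups. It stood at 52.7 ± 15.4 CPM in TP-DSCs and 35.6 ± 6.17 CPM in DP-DSCs (SD, n = 3 each). Ube2d3 did not overlap, at 247 ± 8.12 CPM in TP-DSCs and 279 ± 20.8 CPM in DP-DSCs (SD, n = 3 each). Its highest TP-DSC library, at 255.4 CPM, lay just under its lowest DP-DSC library, at 256.2 CPM. Mid1 and Ube2d3 were both separated in the lower direction, as were 8.56% of all tested genes. In none of these lists did a gene pass in edgeR, reach an unadjusted p under 0.05 there, or pass in DESeq2 on the same genes.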

How the data were processed

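The deposited files hold 1 raw read count per gene symbol and library, with no normalization apparent in the whole-number values. The submitters' processing notes name build mm10 and, without roles, STAR 2.7.3a, DESeq2 3.5 and Partek; the strand setting is not given in the sources used. The kit was stranded and selected polyadenylated RNA, per the labels' protocols. The rows for reads in no gene (14.1 to 20.3% of a library's reads) and for ambiguous reads (1.09 to 1.86%) were left out. CPM is the count over the sum of gene rows.

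Samples were grouped by subtype as labelled, and replicates were numbered in accession order, which pairs nothing. Replicates of a subtype differed by a chi-square of 112.2 to 306.1 per degree of freedom over genes, so no library was a duplicate. Counts were tested in R 4.3.3 with edgeR 4.0.16: filterByExpr (minimum count 10, minimum total 15), TMM scaling, a two-sided quasi-likelihood F test whose design held the group alone, Benjamini-Hochberg adjustment at 0.05 over all genes. The SE is the log2 fold change over the square root of F. Differences within a library number are of log2 CPM averaged per group (prior count 2). Alternatives used DESeq2 1.42.0, limma 3.58.1, other scalings and filters, the library number as a block, and fewer libraries. Lengths and coordinates came from GENCODE M21 and promoters from RefSeq.

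Log2 fold changes were given for tested members with an unadjusted edgeR p under 0.05, without overlap, among the 8 most abundant per kilobase, or in the chromosome 7 group, and for Trim2. Of each companion list up to 3 genes by p are named, and Setdb1, Isg15, Usp18 and Rsad2 were named after their values were seen. The members and lists were chosen with earlier results of these data known.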

Additional observations from a re-analysis of the deposited data

How the results depend on the processing

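The direction of Trim12c held under all 16 alternatives, with log2 fold changes from 1.45 to 1.80, as did those of Trim6 (0.75 to 1.01), Trim33 (0.22 to 0.53) and Trim28 (-0.79 to -0.33). With edgeR and limma-voom, 0 genes and 0 TRIM genes were called under every alternative, including the library number as a replicate block and each library left out (range 0 to 0). DESeq2 called 93 genes on the filtered table and 267 on every gene with a read, a choice added after seeing the data, with 0 and 1 TRIM genes called. The median log2 fold change of the tested TRIM genes, 0.19, was -0.077 without a filter on low counts and -0.035 in DESeq2 without it (47 TRIM genes enter both), -0.038 with limma-voom, 0.020 with the replicate block, 0.074 in the libraries numbered 4140 alone, and 0.050 to 0.19 with 1 library left out; the cause of the last 4 shifts was not tested. The median of all tested genes, -0.02, was itself -0.16 without the filter, -0.12 in DESeq2 without it and -0.15 with limma-voom. The sign of Trim27 turned with upper-quartile factors (-0.00072), limma-voom (-0.020), the block (-0.043) and number 4140 alone (-0.33), and it ran from -0.37 to 0.30 with 1 library left out. Trim21 was -0.12 and Trim34a -1.03 with limma-voom, and Trim34a -0.18 with the block. With 1 library left out, Trim21 ran from -0.28 to 0.22, Trim8 from -0.20 to 0.077 and Trim24 from -0.089 to 0.32. The number of TRIM genes with a mean of at least 1 CPM stayed at 35 with TMM-scaled CPM. Replicate numbers pair no samples, so no other pairing was used. Below about 10 CPM, reads missing from whole TP-DSC libraries limit what can be compared.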

Other observations

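Trim47 and Trim65 lie next to each other on chromosome 11 (GENCODE M21, GRCm38), from 116105752 to 116127210 and from 116121846 to 116131128 on the minus strand, and share 8.23 and 3.82% of their exonic bases. Trim47 had 24.97, 4.64 and 4.80 CPM in TP-DSCs and 14.3, 2.66 and 13.9 CPM in DP-DSCs, and Trim65 had 17.3, 2.23 and 23.2 CPM in TP-DSCs and 9.02, 11.4 and 14.1 CPM in DP-DSCs. In TP-DSCs replicate 3 the pair was therefore unlike, with Trim65 near its highest and Trim47 near its lowest value. Chromosome 11 held 8 of the 35 members described and chromosome 7 held 7, including Trim28, which lies apart from the group around Trim12c.

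DESeq2 called Trim12c with every gene with a read entered and not on the filtered table, from the same counts of Trim12c. Its log2 fold change was 1.62 in both fits, while the unadjusted p in DESeq2 was 0.00130 on the filtered table and 1.99e-05 with every gene entered. How far the DESeq2 call depends on single libraries was not tested.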
